A study of Sus scrofa with 20 samples.

Results

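AGXT2 and the genes that make, break down or respond to methylated arginine were followed in the amygdala, a forebrain region that takes part in fear and stress responses. The 7 genes were AGXT2, DDAH1, DDAH2, PRMT1, PRMT5, NOS1 and ARG2, and every probe set that the platform annotation gives to one of them was used, which made 20 of the 47845 probe sets in the table and 7 of its 13588 named genes. AGXT2 was chosen because of its difference between the groups compared here, so its values are given as a description with no test, and the other genes were chosen for their place in its pathway. The high-reactive (HR) group held 10 animals and the low-reactive (LR) group held 10. All were German Landrace pigs that the study slaughtered some months after birth, with 1 Affymetrix Porcine Snowball Array per animal. The study scored coping by restraint tests in early life and picked animals at the extremes that also carried a coping-associated haplotype of their group, so behaviour and haplotype cannot be told apart. The amygdala was excised with its sub-nuclei, and the labels give no sex, litter or hybridisation batch.

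Protein arginine methyltransferases place methyl groups on arginine residues, and breakdown of those proteins releases free methylarginines. PRMT1, the main type I enzyme, leads to asymmetric dimethylarginine (ADMA), which inhibits nitric oxide synthases, while PRMT5, a type II enzyme, leads to symmetric dimethylarginine. The dimethylarginine dimethylaminohydrolases DDAH1 and DDAH2 are known for the hydrolysis of ADMA. AGXT2 is a mitochondrial aminotransferase best known from kidney and liver that can remove both dimethylarginines and also acts on beta-aminoisobutyrate and glyoxylate. NOS1 is the neuronal nitric oxide synthase, and ARG2, the mitochondrial arginase, uses the same substrate, arginine.

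Values are log2 levels after robust multichip averaging (RMA), so a difference of 1 is a doubling, and every difference is HR minus LR. Array medians lay between 5.14 and 5.22. Probe sets with a mean over the 20 arrays of at least 5.18 were tested, which left 23860. Among them 0.00838% had an adjusted p under 0.05, 26.3% had an unadjusted p under 0.05, and 59.1% had a higher mean in HR, with a median difference of 0.05. A first principal component of these probe sets carried 49.0% of their variance. LR replicate 3 stood apart on it with a score of -102, and its median correlation with the other arrays was 0.876. The mean of the 69 antigenomic background probe sets, which should match no pig transcript, was 4.21 ± 0.13 in HR and 4.08 ± 0.15 in LR (SD, n = 10 each). Of the HR animals, 9 carried a number in the labels above that of every LR animal, and what that number records is not stated.

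AGXT2 was lower in HR than in LR animals. It was measured by 1 probe set. Its level ran over 3.86 to 6.28 with a median of 4.59 in HR, against 5.81 to 7.18 with a median of 6.44 in LR. All 10 HR animals were below the LR median, 9 of them were below the lowest LR animal, and the ranges overlapped only through HR replicate 4 at 6.28, while the next HR animal was at 5.47. The means were 4.83 ± 0.76 in HR and 6.53 ± 0.45 in LR (SD, n = 10 each). The difference was -1.70 ± 0.25 (SE), which describes a gene picked for this difference, and no fold is given because several HR arrays were near background. Without HR replicate 4 the HR mean was 4.67 ± 0.59 (SD, n = 9). In whole tissue, fewer cells of a type and less RNA per cell cannot be told apart.

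**Figure D1:**
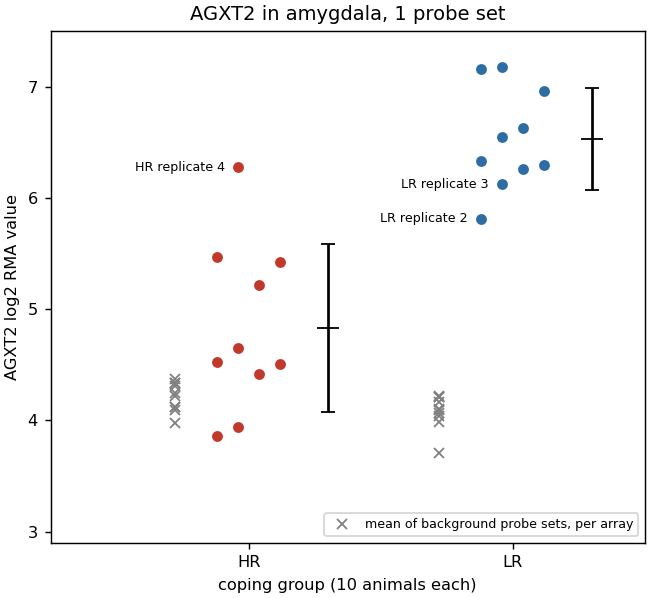
AGXT2 log2 RMA value in each HR (red) and LR (blue) animal, with group mean and SD beside the points and grey crosses for the mean of the background probe sets of each array. HR replicate 4 at 6.28 is the one HR animal inside the LR range of 5.81 to 7.18, and some HR animals lie at the level of the crosses.

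The HR level of AGXT2 was close to background on several arrays. Its value was above the mean of the background probe sets of the same array in 8 of 10 HR and 10 of 10 LR animals. That mean hides a wide spread, because background probe sets grouped by their content of G and C averaged between 1.37 and 8.06 over all arrays. The base content of the AGXT2 probes is not known here, so its own background was not set. The HR mean lay under the filter value of 5.18, as did 6 HR and 0 LR arrays, which means that AGXT2 passed the filter on low values through the LR animals. How much of the HR level is background signal was not tested.

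AGXT2 was more spread among HR than among LR animals. Its range on the log2 scale was 2.42 in HR, against 1.36 in LR. The HR SD of 0.76 stood at the 99.7th percentile of the tested probe sets, whose median HR SD was 0.19. AGXT2 is among these only through its LR level, and several of its HR values are near background. The rank therefore does not compare probe sets of like HR level. The LR SD of 0.45 stood at the 89.2nd percentile, against a median LR SD of 0.22. Without HR replicate 4 the HR SD was 0.59.

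AGXT2 was then set beside measures of the arrays. Within the groups its correlation with the first component was 0.36 and with the background mean 0.36, over 20 arrays with group means removed. Taken by group, 6 relations of AGXT2 to the background mean, the first component and the animal number were computed. With the background mean, Pearson's r was 0.40 (permutation p = 0.252) and Spearman's rho 0.60 (permutation p = 0.0742) in HR, and r was 0.36 (permutation p = 0.318) and rho 0.28 (permutation p = 0.426) in LR. Without the 2 animals farthest from the HR median of AGXT2, r in HR was -0.06. The lowest adjusted p of the 6 Pearson values was 0.381. A model that also held the background mean gave an AGXT2 difference of -1.92 ± 0.26 (SE). One that held the animal number gave -1.46 ± 0.32 (SE), and in it 0% of all probe sets had an adjusted and 3.91% an unadjusted p under 0.05 by limma. Leaving out HR replicates 4 and 6 and LR replicates 2 and 3, the arrays least correlated with the others, the difference was -1.99 ± 0.23 (SE). The highest of the 8 HR animals left was then at 5.47 and the lowest of the 8 LR animals left at 6.26. The 4 arrays left out include HR replicate 4, the one HR animal inside the LR range. Of all tested probe sets, 0.0251% had ranges that did not overlap without these arrays, against 0.00419% with all 20.

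No probe set of the other members passed the test. Their differences were smaller than that of AGXT2, which was picked for its difference. The 6 genes had 19 probe sets, and 15 of them passed the filter. Of these 15, 12 had a higher mean in HR and 3 a lower one, 0 had an adjusted p under 0.05 by limma, and 3 had an unadjusted p under 0.05, all with the higher mean in HR. The background for the last count is 26.3% of all tested probe sets, or 12.3% with a higher and 14% with a lower mean in HR. The adjusted p ran over 0.157 to 0.819 and the differences over -0.15 to 0.26, with a median of 0.08. The HR and LR ranges overlapped for all 19 probe sets, and 0.00419% of all tested probe sets had ranges that did not.

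**Figure D2:**
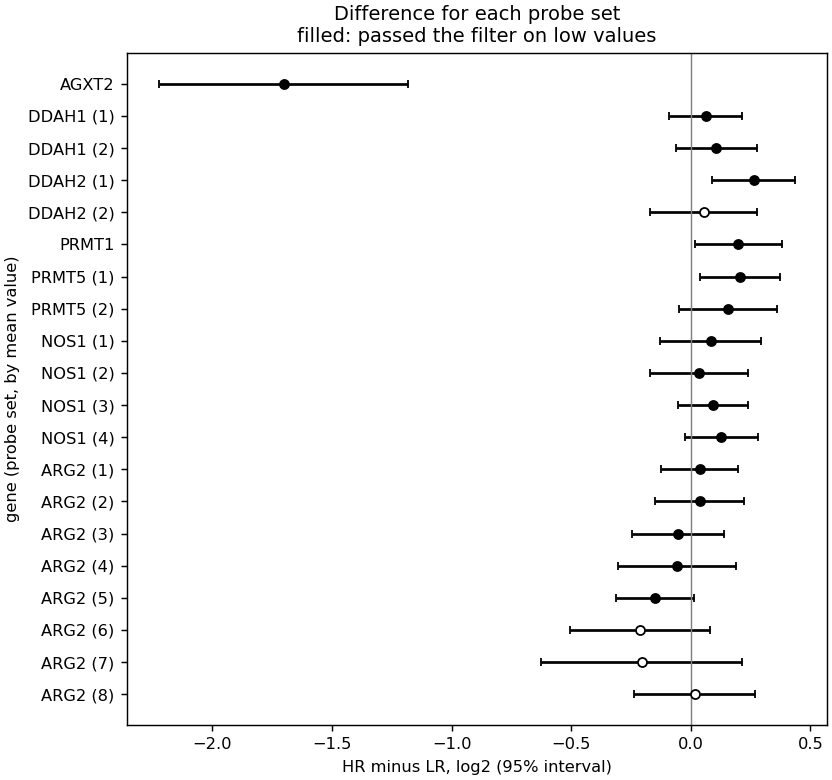
HR minus LR difference (log2) with its 95% interval for each of the 20 probe sets, numbered within a gene from the brightest down. Filled points passed the filter on low values. AGXT2, which was picked for its difference, lies at -1.70, and the other 19 lie between -0.21 and 0.26.

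Among the enzymes that break down ADMA, DDAH2 had the largest difference of the other members. Its brighter probe set lay between 6.97 and 7.44 with a median of 7.19 in HR, and between 6.50 and 7.13 with a median of 7.05 in LR. The difference was 0.26 ± 0.08 (SE), with an unadjusted p of 0.0044 and an adjusted p of 0.157 in limma. Here 8 of 10 HR animals were above the highest LR animal, and the overlap came from the other two HR animals. The second DDAH2 probe set averaged 3.98 ± 0.26 in HR and 3.93 ± 0.23 in LR (SD, n = 10 each), which is at the level of the background mean, and was not tested. Adjusted for the background mean, the DDAH2 difference was 0.17 ± 0.08 (SE) with an unadjusted p of 0.0437, and 4.27% of all tested probe sets were under 0.05 in that model. It was 0.10 (unadjusted p = 0.276) in the model with the animal number and 0.13 (unadjusted p = 0.0763) in one with the first component. Its unadjusted call was lost in both, where 3.91% and 4.64% of all tested probe sets were under 0.05.

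DDAH1, the other hydrolase, showed no difference larger than the spread between animals. Its brighter probe set ran over 10.28 to 10.61 with a median of 10.50 in HR, and over 10.01 to 10.58 with a median of 10.48 in LR. The difference was 0.06 ± 0.07 (SE, 95% interval -0.09 to 0.21, adjusted p = 0.550 in limma). The second DDAH1 probe set had a difference of 0.11 (adjusted p = 0.351 in limma). The HR and LR ranges of DDAH1 overlapped through most of their length.

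The methyltransferases PRMT1 and PRMT5 both had unadjusted p under 0.05 that did not hold after adjustment. PRMT1 ran over 9.15 to 9.66 with a median of 9.31 in HR, and over 8.51 to 9.36 with a median of 9.20 in LR. Its difference was 0.20 ± 0.09 (SE, unadjusted p = 0.0343, adjusted p = 0.175 in limma). The lowest LR value was that of LR replicate 3, and without that array the PRMT1 difference was 0.13 (unadjusted p = 0.0484 in limma). In that fit 18.5% of all probe sets had an unadjusted p under 0.05. PRMT1 followed the first component within the groups at r = 0.94, and adjusted for the background mean its difference was 0.05.

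The brighter PRMT5 probe set ran over 9.31 to 9.72 with a median of 9.45 in HR, and over 8.76 to 9.52 with a median of 9.25 in LR. All 10 HR animals were above the LR median, and 3 were above the highest LR animal. The difference was 0.20 ± 0.08 (SE, unadjusted p = 0.0186, adjusted p = 0.162 in limma), and the second PRMT5 probe set had 0.15 (adjusted p = 0.283 in limma). LR replicate 3 was again the lowest LR animal in both, and without it the difference of the brighter one was 0.15 (unadjusted p = 0.0284 in limma). Both PRMT5 probe sets are marked by the platform as shared among transcripts.

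**Figure D3:**
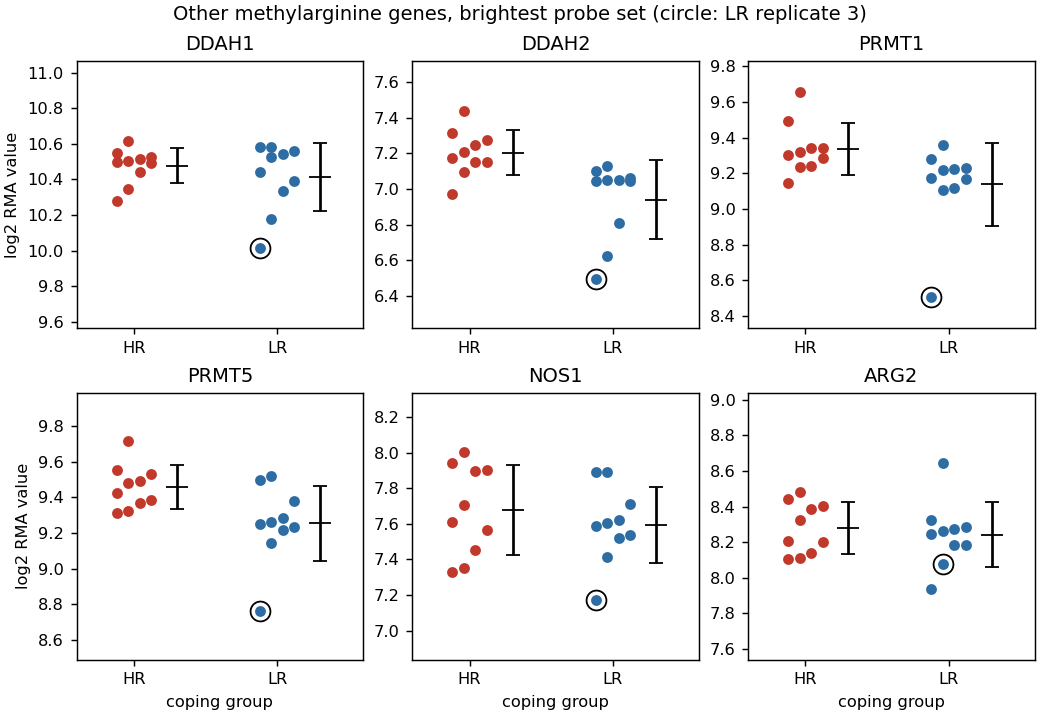
Log2 RMA value of the brightest probe set of DDAH1, DDAH2, PRMT1, PRMT5, NOS1 and ARG2 in each HR (red) and LR (blue) animal, with group mean and SD. A black circle marks LR replicate 3, which is the lowest LR animal in all of them but ARG2. The vertical scale differs between panels but spans the same number of log2 units.

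NOS1, the target of ADMA in neurons, had 4 probe sets. All were tested, and all are marked by the platform as shared among transcripts. Their differences ran over 0.03 to 0.13, with adjusted p of 0.242 or more in limma. The brightest averaged 7.68 ± 0.25 in HR and 7.59 ± 0.21 in LR (SD, n = 10 each), a difference of 0.08 ± 0.10 (SE, 95% interval -0.13 to 0.29, adjusted p = 0.562). In that probe set the lowest animals were at 7.33 in HR and 7.17 in LR, and 4 HR animals were above the highest LR animal at 7.89, so the groups overlapped through most of their range. The markers of nitric oxide interneurons SST, NPY, CHODL and TACR1 had a mean level of 8.05 to 8.61 in HR and 8.18 to 8.62 in LR animals, and 0 of the 4 had an adjusted and 1 an unadjusted p under 0.05 by limma, the last against 29.6% of all tested genes.

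ARG2 had 8 probe sets, of which 5 were tested, and they did not run one way. Over all 8, 3 had a higher and 5 a lower mean in HR, with differences of -0.21 to 0.04. The brightest averaged 8.28 ± 0.14 in HR and 8.24 ± 0.18 in LR (SD, n = 10 each), with a difference of 0.04 ± 0.08 (SE, 95% interval -0.12 to 0.20, adjusted p = 0.738 in limma). Among the tested probe sets the largest difference was -0.15 ± 0.08 (SE, adjusted p = 0.214 in limma), with 6.14 to 6.60 in HR and 6.21 to 6.88 in LR. Of the 8 probe sets, 5 are marked as shared among transcripts.

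Most of the other members followed the first component. Within the groups, the brightest probe sets had correlations with it of 0.94 for PRMT1, 0.84 for DDAH1, 0.76 for PRMT5, 0.70 for DDAH2, 0.47 for ARG2 and 0.44 for NOS1, and 0.36 for AGXT2. The median absolute correlation over all tested probe sets was 0.61, so ARG2, NOS1 and AGXT2 were below it. These are descriptions over 20 arrays, and the component was computed from the tested probe sets, these included. The part of the first component in the differences of DDAH2, PRMT1 and PRMT5 was not tested further than by the covariate values given here.

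**Figure D4:**
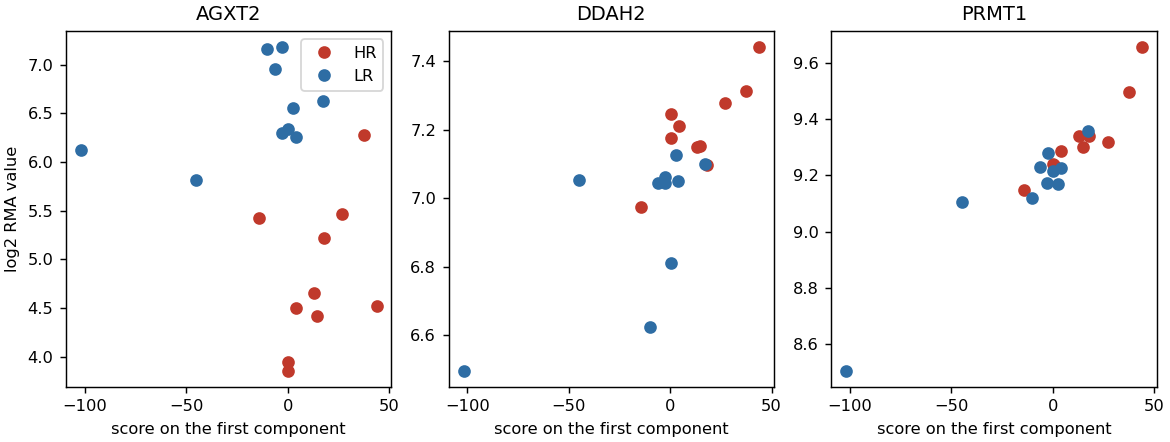
Log2 RMA value of AGXT2, DDAH2 and PRMT1 (brightest probe set) against the score of each array on the first principal component, with HR in red and LR in blue. PRMT1 lies along a line with r = 0.94 within the groups, DDAH2 less closely, and AGXT2 splits by group at like scores.

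AGXT2 had no relation to the other members across animals that passed a test. Within HR and within LR, 12 relations of AGXT2 to the brightest probe sets of the 6 genes were computed, and 0 had an unadjusted permutation p under 0.05. Pearson's r ran over -0.12 to 0.42, and every adjusted p of these values was 0.999. With DDAH1, r was -0.05 (permutation p = 0.899) and rho -0.05 (permutation p = 0.889) in HR. In LR the same pair had the highest r of the 12, at 0.42 (permutation p = 0.221), with a rho of 0.43 (permutation p = 0.216). Without the 2 animals farthest from the group median of AGXT2, r with DDAH1 was -0.31 in HR and 0.72 in LR. The LR value depended on single arrays. Without LR replicate 3 it was 0.30, and -0.30 when the 2 farthest of the 9 animals left were also taken out.

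The genes next to AGXT2 in the RefSeq order of the Sscrofa11.1 assembly were also measured, and that order was used for neighbours only, since the array annotation names no build. Of 10 neighbouring genes with a probe set, 5 on each side, 7 had a lower and 3 a higher mean in HR, 5 were tested, 0 had an adjusted p under 0.05 by limma, and 1 had an unadjusted p under 0.05, beside 29.6% of all tested genes. On one side DNAJC21 had a difference of -0.24 (adjusted p = 0.232 in limma), BRIX1 -0.40 (unadjusted p = 0.0126, adjusted p = 0.157), RAD1 -0.54, TTC23L -0.08 and RAI14 -0.14 (adjusted p = 0.267). On the other side PRLR, the prolactin receptor, had 0.03 (adjusted p = 0.867 in limma), SPEF2 0.02, IL7R -0.08, CAPSL 0.06 and LMBRD2 -0.34 (adjusted p = 0.199).

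RAD1, a subunit of the checkpoint clamp of the DNA damage response, had the largest of these differences and did not pass the filter. It averaged 4.52 ± 0.38 in HR and 5.06 ± 0.41 in LR (SD, n = 10 each), and both of its probe sets had a lower mean in HR. Within the groups, however, RAD1 and AGXT2 ran opposite ways over the 20 arrays, with r = -0.59. BRIX1, a ribosome biogenesis factor, and LMBRD2 followed the first component within the groups with r = -0.89 and r = -0.91.

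By the rule set for likeness, the probe sets of named genes were ranked by their correlation with AGXT2 over the 20 arrays after the group means were removed, as a description with no p. Of 16270 probe sets compared, the 5th percentile was -0.49 and the 95th percentile 0.45. The highest were SYCE1, a synaptonemal complex gene, at 0.81, SDS, serine dehydratase, at 0.80, POP4 at 0.76, ESPNL at 0.75 and PRM3 at 0.74. The lowest were ELP3 at -0.75, CBL at -0.74, MRPS5 at -0.74, TGS1 at -0.73 and LCLAT1 at -0.73. SYCE1 had 0.89 in HR and 0.56 in LR, and 0.75 without the 2 farthest animals, HR replicate 4 and LR replicate 7. Unlike AGXT2, SYCE1 averaged 5.23 ± 0.27 in HR and 5.21 ± 0.13 in LR (SD, n = 10 each), and SDS 5.71 ± 0.45 in HR and 5.64 ± 0.27 in LR. ESPNL had 0.89 in HR and 0.52 in LR, and PRM3 0.90 in HR and 0.40 in LR, and PRM3 was at 0.57 without the same 2 animals. The 5 highest, picked as the top of 16270, had differences between the groups of 0.03 to 0.13. Their means over the 20 arrays were low, at 5.22 to 5.68, beside the filter value of 5.18. Within the groups their correlations with the background mean ran over 0.11 to 0.58. The part of background signal in this likeness was not tested.

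Lists of 83 genes around the members held 68 genes with a probe set and 58 tested ones, and none of the 58 had an adjusted p under 0.05 by limma. Unadjusted, 21 of them, or 36.2%, were under 0.05, 9 with a higher and 12 with a lower mean in HR. The background over all 10255 tested genes was 29.6%, with 14.2% higher and 15.4% lower, and 0.00975% had an adjusted p under 0.05. The median difference was 0.07 over the lists and 0.05 over all tested genes. Adjusted for the background mean, 2 of the 58 had an unadjusted p under 0.05, and without LR replicate 3 there were 16. In those fits 4.27% and 18.5% of all tested probe sets were under 0.05.

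Among the other arginine methyltransferases and the partners of PRMT5, 8 genes were tested, 6 with a higher and 2 with a lower mean in HR, with a median difference of 0.17. PRMT8, a brain-enriched type I enzyme, had a difference of 0.25 (adjusted p = 0.159 in limma) and PRMT7, which makes monomethylarginine, 0.21 (adjusted p = 0.160). The 2 genes with a lower mean were substrate adaptors of PRMT5, with -0.25 for RIOK1 (adjusted p = 0.157) and -0.22 for CLNS1A (adjusted p = 0.165). The other tested partner of PRMT5 had a higher mean in HR. RIOK1 ran over 5.66 to 6.36 with a median of 6.05 in HR and over 6.08 to 6.48 with a median of 6.30 in LR, and 6 of 10 HR animals were below the lowest LR animal. Adjusted for the background mean, the list median was 0.06, with 0.12 for PRMT8, 0.10 for PRMT7, -0.15 for RIOK1 and -0.09 for CLNS1A. With that adjustment 0 of the 8 had an unadjusted p under 0.05, against 6 without it. The shares of all tested probe sets were 4.27% with it and 26.3% without it. PRMT8 ran over 8.38 to 9.04 with a median of 8.57 in HR and over 7.75 to 8.63 with a median of 8.41 in LR. Its lowest LR value was that of LR replicate 3.

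Among the transporters of arginine and methylarginines, 9 genes were tested, 6 with a higher and 3 with a lower mean in HR, with a median difference of 0.09. SLC7A2, a cationic amino acid transporter, had the smallest p of all 58 genes. It ran over 6.17 to 6.57 with a median of 6.37 in HR, and over 6.37 to 7.40 with a median of 6.60 in LR. Its difference was -0.37 ± 0.10 (SE, unadjusted p = 0.0015, adjusted p = 0.157 in limma), and 0 of 10 HR animals were above the LR median. Adjusted for the background mean it was -0.24 (unadjusted p = 0.0192), and in the model with the animal number it was -0.18 (unadjusted p = 0.137). The related transporter SLC7A1 had 0.22 (adjusted p = 0.164), SLC3A2, the heavy chain of other amino acid exchangers, 0.14 (adjusted p = 0.259) and SLC7A9 0.40 (adjusted p = 0.338), with SDs of 0.74 in both groups.

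Cyclic GMP signalling, the pathway that nitric oxide switches on, had the list median farthest from that of all genes, at -0.27, with 3 of 11 tested genes higher and 8 lower in HR. GUCY1B1, the beta subunit of soluble guanylate cyclase, ran over 7.34 to 8.09 with a median of 7.98 in HR and over 7.66 to 9.60 with a median of 8.17 in LR. Its difference was -0.45 ± 0.18 (SE, adjusted p = 0.161 in limma), it followed the first component within the groups with r = -0.97, and adjusted for the background mean the difference was -0.13. The phosphodiesterases PDE1C and PDE10A had -0.31 (adjusted p = 0.157) and -0.25 (adjusted p = 0.159), whereas PDE9A, which is specific for cyclic GMP, had 0.25 (adjusted p = 0.157). PDE9A ran over 7.99 to 8.24 in HR and over 7.41 to 8.15 in LR, and adjusted for the background mean its difference was 0.17 (unadjusted p = 0.0414). The list median after the same adjustment was -0.06. The markers of neurons and of astrocytes, whose part in this list was not tested, each had a median difference of -0.26. After the same adjustment their medians were -0.04 for neurons and 0.01 for astrocytes.

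**Figure D5:**
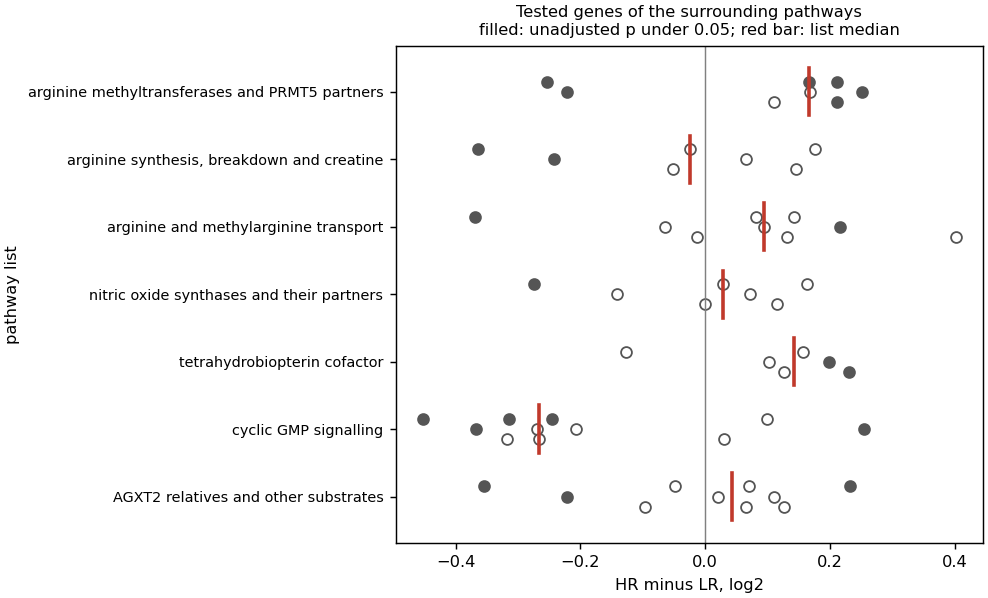
HR minus LR difference (log2) of each tested gene in the 7 pathway lists, with filled points for an unadjusted p under 0.05 and a red bar at the list median. The medians lie between -0.27 for cyclic GMP signalling and 0.17 for the arginine methyltransferases, and none of the genes had an adjusted p under 0.05.

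The list medians that follow lay between that of cyclic GMP signalling and that of the arginine methyltransferases. Of 7 tested genes of arginine synthesis, breakdown and creatine, 3 were higher and 4 lower in HR with a median of -0.02, among them AZIN1 with -0.36, GATM, the first enzyme of creatine synthesis, with -0.24, GAMT, the second, with 0.18 and the spermidine synthase SRM with 0.15. Of 7 nitric oxide synthase genes and partners, 5 were higher and 2 lower with a median of 0.03, among them CALM2 with -0.27, NOS3 with 0.16, HSP90AB1 with -0.14 and CALM3 with 0.11. Of 6 genes for tetrahydrobiopterin, the cofactor of nitric oxide synthases, 5 were higher and 1 lower with a median of 0.14, among them the feedback regulator GCHFR with 0.23 (adjusted p = 0.157 in limma), SPR with 0.20, QDPR with 0.16 and GCH1, the first enzyme, with 0.13. Adjusted for the background mean, the medians of these lists were 0.02, -0.003 and 0.02 in the order given. With that adjustment AZIN1 had -0.08, GATM -0.12, GAMT 0.06 and SRM 0.05.

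No tested relative of AGXT2 and no tested enzyme that shares its substrates had an adjusted p under 0.05 by limma. Of 10 tested genes, 6 were higher and 4 lower in HR, with a median of 0.04. AGXT, the peroxisomal enzyme that also transaminates glyoxylate, had a difference of 0.07 (adjusted p = 0.498 in limma), and GRHPR, which reduces glyoxylate, had 0.23 (adjusted p = 0.164). DPYD, the first step of pyrimidine breakdown towards beta-aminoisobutyrate, had -0.36 (adjusted p = 0.173), and the mitochondrial enzymes ALDH6A1 and ABAT had -0.22 (adjusted p = 0.173) and -0.10 (adjusted p = 0.252). The largest of these differences in size was -0.36. AGXT2 was picked for its difference of -1.70, so its larger size beside this list was fixed in advance.

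Since AGXT2 is best known from kidney and liver, markers of those and other tissues were set beside it. The mean level of the 6 measured kidney markers was 4.69 to 4.96 in HR and 4.59 to 4.91 in LR, and 5 of the 6 were under the filter value. The 7 measured liver markers had 4.73 to 4.95 in HR and 4.66 to 4.93 in LR, and 5 were under it. The choroid plexus markers varied most, with 6.13 to 8.63 in HR and 6.10 to 8.15 in LR, and the 4 measured blood cell markers reached 5.97 in HR and 6.06 in LR. The ranges of all 4 lists overlapped, and of their 9 tested genes 0 had an adjusted and 2 an unadjusted p under 0.05 by limma, where 29.6% of all tested genes had an unadjusted one.

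Markers of brain cells were present in the labelled tissue, with mean levels of neuronal genes of 9.41 to 9.87 in HR and 9.60 to 10.30 in LR. Of 9 tested neuronal genes, 7 had an unadjusted p under 0.05, 1 higher and 6 lower in HR, against 29.6% of all tested genes, and 3 did without LR replicate 3. Their median difference was -0.26, and adjusted for the background mean it was -0.04 with 0 of the 9 under 0.05. Of all tested probe sets, 18.5% were under 0.05 without LR replicate 3 and 4.27% with the background mean. Astrocyte markers lay at 10.38 to 10.70 in HR and 10.47 to 11.14 in LR. Of 7 tested ones 4 had an unadjusted p under 0.05, 1 higher and 3 lower in HR, with a median difference of -0.26. Adjusted for the background mean, that median was 0.01, with 1 of the 7 under 0.05. Oligodendrocyte markers lay at 10.06 to 10.33 in HR and 10.01 to 10.63 in LR, and microglial markers at 8.39 to 8.89 in HR and 8.43 to 8.81 in LR. Endothelial and mural markers lay at 7.53 to 7.76 in HR and 7.23 to 7.84 in LR. The part of these in the differences of the 7 genes was not tested.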

How the data were processed

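Amygdala RNA of 20 pigs was measured on Porcine Snowball Arrays, with 1 array for each animal. The authors used GCOS 1.1.1, as their processing notes say, and deposited log2 values. RMA, which the study's methods name, corrects for background, normalizes across arrays and summarises each probe set. The deposited table still holds probe sets of low signal, so no detection filter shows in it. Of its 47845 probe sets, 123 are array controls. Groups were taken from the coping pattern in the labels. Symbols are those of the platform annotation and some may be outdated.

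The test of HR against LR was 2-sided and used lmFit and eBayes of limma 3.58.1 (R 4.3.3) without covariates, over the 23860 probe sets other than controls whose mean was at least 5.18, the median of all probe set means. Benjamini-Hochberg adjustment ran over all of them, with a threshold of 0.05. The brightest probe set stood for a gene in lists, which gave 10255 genes. Correlations used 100000 permutations, 2-sided, within each group. The probe sets not tested had their differences from the same model without the filter. The procedure was tested on simulated data.

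Members, lists and tests were chosen with earlier results of these data known. Named genes were all members, up to 4 tested genes of smallest p per list, the nearest 5 measured genes on each side of AGXT2, and the 5 most and 5 least like it. Precision is limited by the number of arrays, which have no read depth. Alternatives for the filter, normalization, variance model, weights, covariates and arrays left out are given in the closing section.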

Additional observations from a re-analysis of the deposited data

Results flagged for a closer look

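In 136 sets of 10 values (1 group of animals and 1 probe set of a member or named gene), the gap between the most extreme animal and its nearest neighbour was compared with the whole range by Dixon's criterion, and 19 sets stood out. Chance flags about 1 in 20 groups, or about 7 here. LR replicate 3 accounted for 12 of the 19, and the sets are not independent because that array differs from the rest across many genes.

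LR replicate 3 was the lowest LR animal for PRMT1 at 8.51, for the brighter and the dimmer PRMT5 probe set at 8.76 and 7.99, for PRMT7 at 6.54 and for PRMT8 at 7.75. It was also the lowest for SLC7A1 at 6.84, SLC3A2 at 8.88, NOS3 at 5.75, GCHFR at 5.68 and SPR at 7.21, and the highest for CALM2 at 12.28 and LMBRD2 at 9.28. HR replicate 6 was the highest HR animal for PRMT8 at 9.04, SRM at 8.09 and CALM3 at 12.51, and the lowest for DPYD at 5.23. HR replicate 9 was the lowest HR animal for 1 of the ARG2 probe sets at 6.70. LR replicate 8 was the highest LR animal for PDE10A at 8.40, and LR replicate 2 for CBL at 7.38. Neither group of AGXT2 stood out by this criterion.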

How the results depend on the processing

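AGXT2 was picked for its difference in these same arrays, where 9 of 10 HR animals were below the lowest LR animal. Its sign when 1 array is left out was therefore fixed in advance and is no test of the difference. The AGXT2 difference was -1.70 as reported and kept its sign in all settings tried. It ran over -1.86 to -1.60 when each array was left out in turn, and over -1.99 (without the 4 arrays of lowest correlation) to -1.46 (animal number as a covariate) in the other settings. No probe set of the other members and no gene of the pathway lists had an adjusted p under 0.05 in any setting, and no relation of AGXT2 to another member had an unadjusted p under 0.05 on background residuals or without LR replicate 3. Differences of the other members moved more. DDAH1 had 0.06 as reported, -0.00112 with the animal number, -0.00463 with array weights, -0.0164 with the background mean, -0.0726 with the first component and -0.0418 without the 4 arrays. NOS1 had 0.08 as reported, -0.0368 with the animal number and -0.0243 with the first component. ARG2 had 0.04 as reported, -0.103 with the animal number, -0.0433 with the first component, -0.0735 as the mean of its probe sets and -0.0285 without the 4 arrays. The cause of these changes was not tested. The animal number, the first component and the background mean differed between the groups, so models that hold them cannot tell them apart from coping group. DDAH2, PRMT1 and PRMT5 stayed higher in HR in every setting, down to 0.10, 0.01 and 0.07. Of the 15 other probe sets, the 3 with an unadjusted p under 0.05 became 0 with the animal number or the first component and 1 with the background mean or without the 4 arrays. Of the 58 list genes, 21 became 2, 1, 2 and 3 with the animal number, the first component, the background mean and without the 4 arrays, and 14 to 27 when 1 array was left out. The share of all tested probe sets under 0.05 fell as well. It was 26.3% as reported, 3.91% with the animal number and 4.64% with the first component. With the background mean it was 4.27%, and without the 4 arrays 5.78%. No paired analysis was possible because the labels give no replicate numbers shared between the groups, and numbers in accession order only name the arrays. AGXT2 rests on 1 probe set whose HR level is near background.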
